A study of Rattus norvegicus with 16 samples.

Results

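Voltage-gated ion channel genes were examined in rat hippocampus and hypothalamus: the pore-forming subunits of the Kv1, Kv2, Kv3, Kv4, Kv7 and Kv10 to Kv12 potassium channels, the Nav sodium channels, the Cav calcium channels and the HCN channels. They were chosen by gene symbol (Kcna, Kcnb, Kcnc, Kcnd, Kcnq, Kcnh, Scn with the suffix a, Cacna1 and Hcn genes) and by a mean of at least 1 FPKM, the number of fragments scaled to transcript length and library size, over all libraries of a region. This gave 42 genes of the 16514 symbols measured. Of these, 36 were members in hippocampus and 41 in hypothalamus, with 35 in both. Kcnh7 was a member in hippocampus alone, and 6 in hypothalamus alone, Scn1a, Scn9a, Scn7a, Scn11a and Hcn4 among them. The lowest members were Kcnh4 at 1.01 FPKM in hippocampus and Scn11a at 1.06 FPKM in hypothalamus, both of which reached the limit through the fructose libraries, with control means of 0.875 and 0.806 FPKM, and the symbols just under the limit were Scn7a at 0.763 and Kcnh7 at 0.604 FPKM. In all, 49 symbols matched the names. Scn1a and Scn9a were read only from the hypothalamus table, so their hippocampus level was not analysed here.

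The tissue came from male Sprague Dawley rats, an outbred strain. The control groups had no treatment and the others received fructose for 6 weeks. The dose, the route and the age of the rats are not in the labels. The hippocampus groups held 4 control and 4 fructose libraries, and the hypothalamus groups 4 control and 3 fructose libraries, since fructose replicate 4 of hypothalamus had no column. Nothing in the labels says that each library came from a different rat, so the p-values measure the spread between these libraries. The files hold FPKM values and no read counts, so the depth is unknown and no counting error can be given. FPKM summed over all loci lay between 353703 and 402099 in hippocampus and between 435105 and 492778 in hypothalamus. The replicate 1 libraries stood apart in both regions: the control and fructose libraries of that number correlated at 0.985 and 0.98 with each other over loci, and at 0.84 to 0.896 and 0.88 to 0.909 with the other libraries. All 11 hypothalamic markers compared, peptides such as Agrp, Pomc, Hcrt and Avp among them, were higher in every hypothalamus control library than in every hippocampus one. Npy, the remaining gene of the 12 listed, was at 0 FPKM in every control library of both regions and was not compared. Of 4 hippocampal markers compared, 3 were lower. The list held 8, but Fibcd1 was at 0 throughout and no hippocampus values were read for Zbtb20, Dsp and Emx1.

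Voltage-gated channels open or close with the membrane potential and shape the electrical signals of neurons. Nav channels carry the upstroke of the action potential, Kv channels end it and set how readily a neuron fires again, and Cav channels couple it to calcium entry, transmitter release and gene expression. Kv7 channels carry the M-current, a slow potassium current that muscarinic receptors switch off, and HCN channels open on hyperpolarization and carry a depolarizing pacemaker current.

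The start regions of these genes were described because the rule did not use them. RefSeq promoters of assembly GRCr8, each 300 bases long with 250 before and 50 after the annotated start, matched 26 of the 42 members. Their median GC content was 67.5%, against 52.3% over all 27457 promoters of the table, and their median number of CpG dinucleotides was 23, against 7. All promoters of that table were used whatever their expression, while the members had at least 1 FPKM. The contrasts given here therefore cannot tell channel genes from expressed genes in general. A GC box (GGGCGG, either strand) stood in 15 of 26 (57.7%), against 34.9% of all promoters. The letters TATAAA stood in 0 of 26, against 14.3% of all. The cyclic AMP response element TGACGTCA also stood in 0 of 26 (1.91% of all), and the E box CACGTG in 1 of 26 (6.65% of all). The left arm of the RE1 element, TTCAGCACC, the site known for the neuronal repressor REST, was found in 1 of 26, the promoter of Kcnh6, and in 0.379% of all promoters. The promoters of 2 members that were higher in control hypothalamus (Hcn2 and Scn7a) and of 2 that were higher in control hippocampus (Kcnq5 and Scn8a) are printed as examples of both directions, chosen after their values were seen. Capitals mark GC boxes, read as GGGCGG or as CCGCCC where the box lies on the other strand.
Hcn2, chr7:10639408-10639707, minus strand: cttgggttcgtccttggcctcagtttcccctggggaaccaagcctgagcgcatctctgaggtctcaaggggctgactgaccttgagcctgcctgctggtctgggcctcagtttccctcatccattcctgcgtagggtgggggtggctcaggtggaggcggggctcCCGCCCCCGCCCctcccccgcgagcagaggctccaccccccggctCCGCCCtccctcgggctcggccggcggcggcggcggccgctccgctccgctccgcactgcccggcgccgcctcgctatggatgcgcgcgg
Scn7a, chr3:71846235-71846534, minus strand: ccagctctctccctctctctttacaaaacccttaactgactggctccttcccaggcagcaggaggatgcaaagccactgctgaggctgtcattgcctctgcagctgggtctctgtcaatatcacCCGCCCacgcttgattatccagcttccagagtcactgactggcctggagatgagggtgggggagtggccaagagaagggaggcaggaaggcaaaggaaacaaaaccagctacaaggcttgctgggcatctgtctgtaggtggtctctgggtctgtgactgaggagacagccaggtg
Kcnq5, chr9:31891232-31891531, minus strand: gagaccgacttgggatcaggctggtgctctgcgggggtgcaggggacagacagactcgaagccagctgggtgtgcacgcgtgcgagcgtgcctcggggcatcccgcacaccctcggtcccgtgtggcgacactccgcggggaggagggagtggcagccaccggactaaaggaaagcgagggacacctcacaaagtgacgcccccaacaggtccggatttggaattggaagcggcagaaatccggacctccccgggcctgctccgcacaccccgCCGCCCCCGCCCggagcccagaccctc
Scn8a, chr7:133860977-133861276, plus strand: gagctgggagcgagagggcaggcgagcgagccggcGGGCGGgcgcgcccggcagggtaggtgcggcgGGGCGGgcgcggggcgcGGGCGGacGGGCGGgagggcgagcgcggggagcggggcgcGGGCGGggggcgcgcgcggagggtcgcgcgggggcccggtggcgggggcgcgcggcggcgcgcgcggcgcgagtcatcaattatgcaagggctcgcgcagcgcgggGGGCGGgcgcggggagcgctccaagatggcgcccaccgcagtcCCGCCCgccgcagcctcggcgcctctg
The GC box count was 3 for Hcn2, 1 for Scn7a, 2 for Kcnq5 and 7 for Scn8a. Members without a box also stood on both sides, such as Kcna5 and Scn11a (higher in hypothalamus) and Kcna4 and Kcnc2 (lower). A link between the boxes and the regional difference was not tested. A match is only a run of letters, and its use in these tissues was not tested.

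The first comparison set control hypothalamus beside control hippocampus. Kcnq3, Kcnq5 and several Cav subunits were higher in hippocampus, and Hcn2, Hcn3 and Hcn4 were higher in hypothalamus. The regions were deposited as separate tables that may have been normalized separately, so no test was made across them, and the comparison is a description of levels and of whether the libraries overlap. Of the 42 members, 39 had rows in both tables. Of these, 9 (23.1%) were higher in each of the 4 hypothalamus control libraries than in each of the 4 hippocampus ones, against 34% of the 10844 symbols compared. Another 15 (38.5%) were lower in each hypothalamus library, against 17.6% of all symbols, and 15 overlapped. Between regions the median log2 difference of FPKM + 1, hypothalamus minus hippocampus, was 0.20 over all symbols and -0.06 over the 39 members. When the libraries were rescaled to equal sums these became -0.055 and -0.27, with 9 members above (22.6% of all symbols) and 17 below (28% of all symbols), and with the loci of a symbol summed the members' median was 0.07. The sign of the members' median therefore depends on the scaling and on the loci, while 23 of the 24 non-overlapping members stayed on their side under each of the 3 other scalings or sums. The exception was Cacna1i, whose regions overlapped once its loci were summed. The fructose libraries, which the comparison of controls did not use but the choice of members did, put 23 of the same 24 members on the same side without overlap (95.8%), against 84% of all symbols that did not overlap in controls. The exception there was Cacna1h. Scn7a, Scn11a, Hcn4 and Kcnh7 reached 1 FPKM in 1 region alone, so the rule fixed their direction. Among the 35 members at 1 FPKM or more in both regions, 6 (17.1%) were above and 14 (40%) below, against 32.5% and 17.2% of the 9931 symbols at that level in both. Without hypothalamus control replicate 1, 14 members were above (39% of all symbols) and 15 below (23.7%), and without both control replicate 1 libraries 16 were above (41.7%) and 16 below (27.8%).

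**Figure D1:**
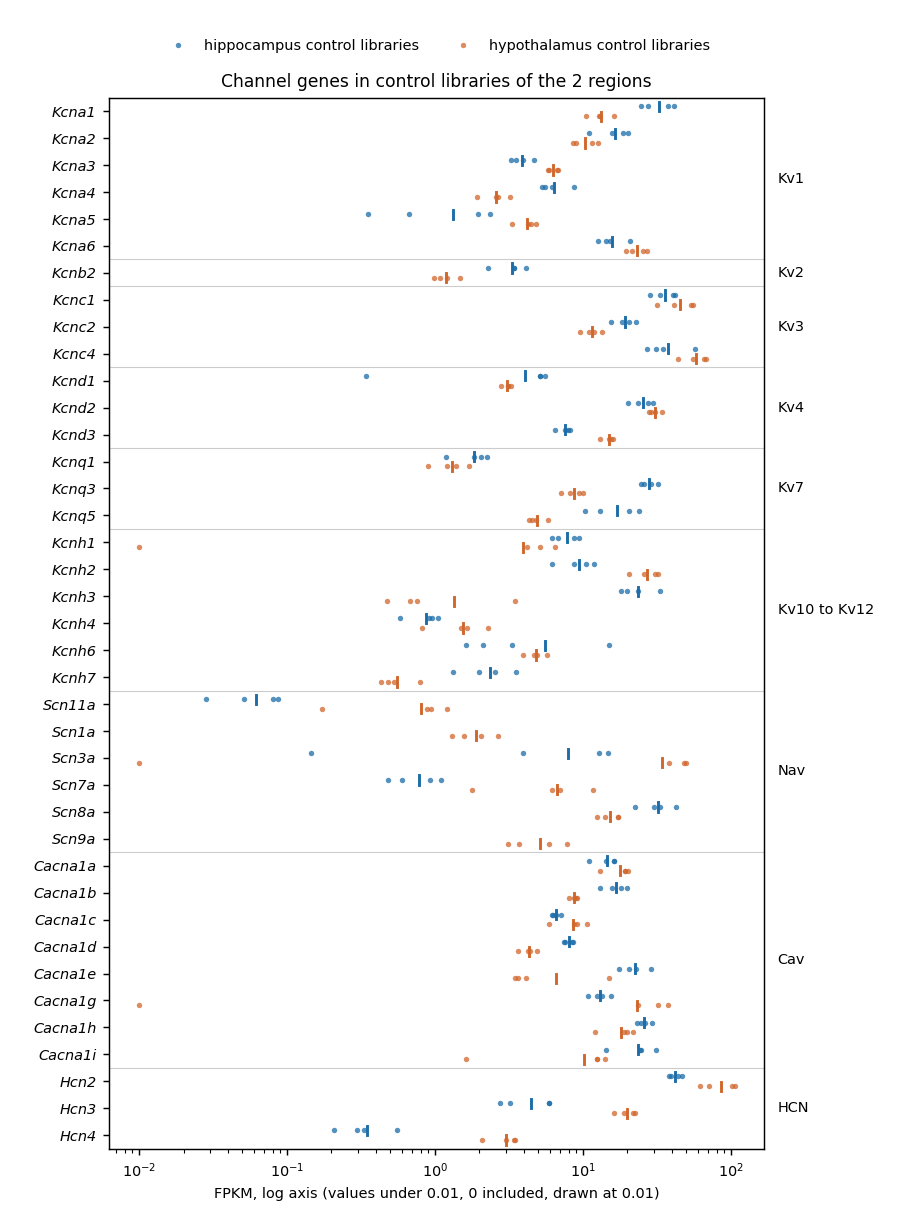
FPKM (log axis) of the channel genes reported here in the 4 control libraries of hippocampus (blue) and of hypothalamus (orange), by channel family, with points for libraries and vertical marks for means. Kcnq3 and Kcnq5 lie to the right in hippocampus and Hcn2, Hcn3 and Hcn4 in hypothalamus, while Scn1a and Scn9a have hypothalamus points alone.

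Among potassium channels, 2 subunits of the M-channel were higher in hippocampus. Kcnq3 had 29.0, 32.4, 25.9 and 24.8 FPKM in hippocampus control replicates 1 to 4 and 9.99, 9.41, 7.12 and 8.24 FPKM in hypothalamus. Each hippocampus value lay above each hypothalamus value, and the means were 28.0 ± 3.43 and 8.69 ± 1.27 FPKM (SD, n = 4 each), a ratio of 3.22. Kcnq5, another M-channel subunit, had 13.1, 20.5, 24.1 and 10.3 FPKM in hippocampus against 4.81, 5.80, 4.51 and 4.33 FPKM in hypothalamus, a ratio of 3.50. The regions did not overlap for either gene, and the ratios lay close together. Kcnq1, best known from heart and epithelia, was low in both regions (1.84 ± 0.467 and 1.30 ± 0.341 FPKM, SD, n = 4 each) and its libraries overlapped.

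The Kv10 to Kv12 family held opposite patterns. Kcnh3, a Kv12 subunit, had 33.1, 23.6, 19.9 and 18.2 FPKM in hippocampus controls and 3.49, 0.681, 0.751 and 0.475 FPKM in hypothalamus controls. The hippocampus values were all far above, and the ratio of the means was 17.5, although control replicate 1 raised the hypothalamus mean to 1.35 FPKM, and without it the ratio was 37.3. Kcnh2, the ERG channel, ran the other way, with 11.96, 8.71, 10.5 and 6.15 FPKM in hippocampus and 20.6, 32.0, 25.9 and 30.6 FPKM in hypothalamus. The hypothalamus values were all above, and the means of 9.34 ± 2.51 and 27.3 ± 5.18 FPKM (SD, n = 4 each) gave a ratio of 2.92. Kcnh7, also of the ERG group, had 2.35 ± 0.950 FPKM in hippocampus and 0.558 ± 0.159 FPKM in hypothalamus (ratio 4.21, no overlap). Kcnh1, Kcnh4 and Kcnh6 overlapped between the regions.

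In the Kv1 family of low-threshold and A-type channels, 2 members were higher in each region. Kcna1, an axonal channel of low threshold, had 27.5, 41.2, 37.3 and 24.8 FPKM in hippocampus and 12.9, 16.2, 10.5 and 13.1 FPKM in hypothalamus. Its hippocampus values were all above (ratio of the means 2.48), as were those of the A-type subunit Kcna4 (6.43 ± 1.55 against 2.60 ± 0.534 FPKM, SD, n = 4 each). Kcna3 (3.85 ± 0.630 against 6.30 ± 0.479 FPKM) and Kcna5 were higher in hypothalamus. Kcna5 had 1.96, 0.356, 0.664 and 2.35 FPKM in hippocampus and 4.48, 3.30, 4.82 and 4.23 FPKM in hypothalamus, so its hippocampus libraries spread widely but stayed below. Kcna6, the highest Kv1 member in hypothalamus, had 14.3, 15.3, 20.8 and 12.6 FPKM in hippocampus and 21.6, 27.1, 19.5 and 25.3 FPKM in hypothalamus, with 1 hippocampus library inside the hypothalamus range. Kcna2 overlapped too, and lay below in hypothalamus once the libraries were rescaled.

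Kcnb2, a delayed rectifier and the one Kv2 member, had 3.40, 4.10, 3.43 and 2.28 FPKM in hippocampus and 1.08, 1.47, 1.21 and 0.988 FPKM in hypothalamus, without overlap (ratio of the means 2.78). Kv3 channels, which close fast and allow high firing rates, overlapped for Kcnc1 and Kcnc4. Kcnc4 had 57.0, 34.8, 31.1 and 26.98 FPKM in hippocampus and 43.6, 65.5, 55.4 and 68.4 FPKM in hypothalamus. Kcnc2 stood apart, with 18.3, 22.7, 20.6 and 15.6 FPKM in hippocampus and 13.4, 11.9, 9.49 and 10.98 FPKM in hypothalamus. The Kv4 subunits carry the somatodendritic A-type current. Kcnd3 had 7.52, 7.92, 8.24 and 6.49 FPKM in hippocampus and 15.6, 16.1, 15.0 and 13.0 FPKM in hypothalamus, all higher, at a ratio of 1.98. Kcnd2, the highest Kv4 member in both regions, had 25.3 ± 4.31 and 30.5 ± 2.69 FPKM (SD, n = 4 each) and overlapped. Kcnd1 overlapped too, through hippocampus control replicate 1 at 0.343 FPKM at 1 of its 2 loci. With the loci of Kcnd1 summed the means were 6.19 FPKM in hippocampus and 3.08 FPKM in hypothalamus (ratio 2.01), and the regions did not overlap, as without both control replicate 1 libraries.

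The HCN genes Hcn2, Hcn3 and Hcn4 were higher in hypothalamus. Hcn2, the highest member of all in hypothalamus, had 47.1, 38.4, 43.7 and 39.6 FPKM in hippocampus and 71.4, 106.0, 61.7 and 101.5 FPKM in hypothalamus. Each hypothalamus value was higher, and the means of 42.2 ± 3.95 and 85.1 ± 22.0 FPKM (SD, n = 4 each) gave a ratio of 2.02. Hcn3 had 5.94, 3.24, 5.90 and 2.75 FPKM in hippocampus and 18.9, 22.0, 16.3 and 22.5 FPKM in hypothalamus, a ratio of 4.47 without overlap. Hcn4, the slow pacemaker subunit of the heart, had 0.332, 0.207, 0.553 and 0.2995 FPKM in hippocampus and 2.09, 3.48, 3.04 and 3.44 FPKM in hypothalamus, a ratio of 8.66.

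Sodium channels again held both directions. Scn8a, the main channel of the axon initial segment and nodes, had 30.4, 33.1, 42.8 and 22.5 FPKM in hippocampus and 12.5, 17.2, 14.2 and 17.3 FPKM in hypothalamus, without overlap (ratio of the means 2.10). Scn7a, an atypical channel known as a sodium sensor of the circumventricular organs, had 0.932, 1.10, 0.482 and 0.595 FPKM in hippocampus and 11.6, 1.79, 6.97 and 6.21 FPKM in hypothalamus. All hypothalamus values were higher, and the ratio of the means was 8.55. Scn11a, known from nociceptive neurons, had 0.0284 to 0.0867 FPKM in hippocampus and 1.22, 0.890, 0.944 and 0.174 FPKM in hypothalamus, so its ratio of 13.1 rests on very low values. Scn3a, a channel abundant early in development, had the highest Nav mean in hypothalamus (34.2 ± 23.4 FPKM, SD, n = 4) and 7.93 ± 7.02 FPKM in hippocampus, with overlap and with control replicate 1 near or at 0 in both regions. Scn1a and Scn9a were read in hypothalamus alone, at 1.89 ± 0.593 and 5.13 ± 2.14 FPKM (SD, n = 4 each). Scn2a, the other main neuronal sodium channel, stands in the tables under the older symbol Scn2a1 and so falls outside the rule: its control means were 40.7 ± 12.9 FPKM in hippocampus and 24.9 ± 4.61 FPKM in hypothalamus, with overlap.

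None of the 8 calcium channel genes was higher in every hypothalamus control, and 5 were lower. Cacna1e, the R-type pore, had 20.6, 29.1, 22.9 and 17.5 FPKM in hippocampus and 15.0, 3.45, 3.62 and 4.15 FPKM in hypothalamus at its higher-mean locus, a ratio of 3.44. The hypothalamus libraries were all below, with control replicate 1 far above the other 3, and without that library the ratio was 6.02. With the 2 hypothalamus loci of Cacna1e summed, the means were 22.5 and 14.0 FPKM and the ratio 1.61, still without overlap. Cacna1i, a T-type pore, had 24.3, 24.6, 31.1 and 14.4 FPKM in hippocampus and 1.62, 12.5, 12.4 and 14.0 FPKM in hypothalamus, separated by a narrow gap. Cacna1b, the N-type pore of presynaptic terminals, had 16.7 ± 2.97 against 8.71 ± 0.474 FPKM, Cacna1d (L-type) 8.02 ± 0.562 against 4.29 ± 0.504 FPKM, and Cacna1h (T-type) 26.0 ± 2.66 against 18.1 ± 4.18 FPKM (SD, n = 4 each). Of the hippocampus control values of Cacna1h, 2 carry a failed status. The P/Q-type pore Cacna1a (14.5 ± 2.48 and 17.95 ± 3.24 FPKM) and the L-type pore Cacna1c (6.55 ± 0.440 and 8.57 ± 1.97 FPKM) overlapped. Cacna1g, the third T-type pore, had 13.4, 12.5, 15.4 and 10.9 FPKM in hippocampus and 0.00616, 32.2, 23.6 and 37.7 FPKM in hypothalamus at its higher-mean locus. At that locus replicate 1 lay below and the other 3 above the hippocampus libraries. With its 2 hypothalamus loci summed, replicate 1 had 12.5 FPKM, inside the hippocampus range, and the other 3 had 39.6 to 52.4 FPKM. Without both control replicate 1 libraries, Cacna1a, Cacna1c and Cacna1g were higher in hypothalamus without overlap, as were Kcnc1, Kcnc4, Kcnh4 and Scn3a.

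Family totals give the same values as shares within a library, so that a scale common to its genes cancels: the share of the FPKM summed over 37 of the members with rows in both tables. In control hippocampus the Kv7 genes Kcnq1, Kcnq3 and Kcnq5 made up 8.90% ± 0.663 of this sum and in control hypothalamus 2.81% ± 0.704 (SD, n = 4 each). For Hcn2, Hcn3 and Hcn4 the shares were 9.04% ± 1.22 and 19.9% ± 2.69. The ranges did not overlap in either family: the Kv7 share was at least 8.19% in hippocampus and at most 3.85% in hypothalamus, the HCN share at most 10.1% and at least 15.9%. Kv3 shares were 17.7% ± 2.83 and 21.2% ± 0.626, and Cav shares 24.9% ± 0.470 and 17.8% ± 2.66, the latter becoming 21.3% with loci summed. The hypothalamus share of Cav genes was low in control replicate 1, at 14.1% against 17.7% to 19.8% in the other controls, and that of Kv7 genes high, at 3.85% against 2.29% to 2.60%. The total itself was 524.5 ± 69.2 FPKM in hippocampus and 542.0 ± 90.4 FPKM in hypothalamus (SD, n = 4 each). In the fructose libraries the Kv7 share was 9.44% ± 0.439 (n = 4) in hippocampus and 3.00% ± 0.440 (n = 3) in hypothalamus, and the HCN share 8.51% ± 1.79 and 20.3% ± 1.51 (SD). Both families thus kept their regional order in the fructose libraries, with values near those of the controls.

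**Figure D2:**
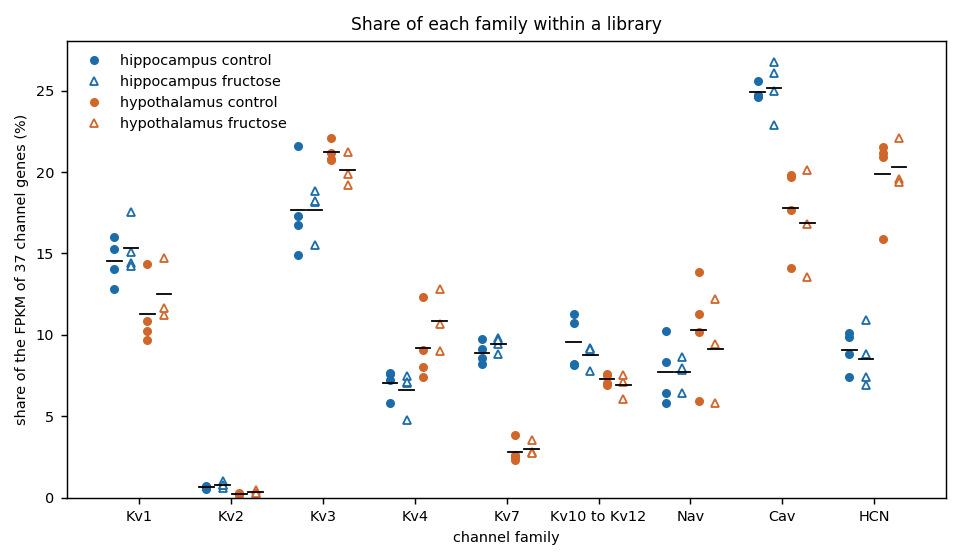
Share (%) of each channel family in the summed FPKM of 37 channel genes, for each library of hippocampus (blue) and hypothalamus (orange), control (filled circles) and fructose (open triangles), with black lines for means. Kv7 takes a mean of 8.90% in control hippocampus and 2.81% in control hypothalamus, HCN 9.04% and 19.9%, and the fructose triangles lie among or near the control circles of their region.

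Cell type markers moved with region. The summed level of 4 markers of excitatory neurons (Slc17a7, Slc17a6, Camk2a and Neurod6) was 1745 to 2601 FPKM in hippocampus controls and 136.4 to 210.2 FPKM in hypothalamus controls, with 3 markers lower and Slc17a6 higher in hypothalamus and none at 0. The hippocampus sum came mainly from Camk2a and Slc17a7, with control means of 1540 and 651.1 FPKM there. Slc17a6 had control means of 5.84 FPKM in hippocampus and 44.2 FPKM in hypothalamus. For 6 markers of inhibitory neurons the sums were 378.6 to 489.4 and 798.4 to 942.8 FPKM, with 3 higher and 1 lower in hypothalamus. Those of 8 general neuronal markers overlapped (1584 to 2243 and 1433 to 1941 FPKM), and those of 6 oligodendrocyte markers were 2488 to 4704 and 4622 to 8458 FPKM. In bulk tissue, fewer cells of a type and less RNA per cell cannot be told apart, and the part of these cell types in the channel differences was not tested.

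Auxiliary subunits of the same channels also differed by region. Of 13 auxiliary potassium channel subunits compared, 5 (38.5%) were above and 5 (38.5%) below in hypothalamus controls, where 34% and 17.6% of all symbols were. Kcnip1, a Kv4 partner, had 11.6 ± 3.39 FPKM in hippocampus and 61.0 ± 5.96 FPKM in hypothalamus, and Dpp6, also a Kv4 partner, 65.5 ± 14.8 and 242.7 ± 45.0 FPKM. Kcnab1, a Kv1 beta subunit, went the other way at 50.2 ± 7.05 and 8.07 ± 3.01 FPKM (SD, n = 4 each). Silent Kv subunits, which form channels only with other Kv subunits, were 0 above and 4 below of 8, Kcng1 and Kcnv1 among the lower. Of 8 sodium channel partners 2 were above and 5 below, with Scn2b at 180.1 ± 73.7 and 37.2 ± 1.47 FPKM and Scn3b at 149.3 ± 33.0 and 41.5 ± 3.37 FPKM. Of 7 auxiliary calcium channel subunits Cacna2d2 was above (7.85 ± 3.56 and 31.7 ± 5.40 FPKM) and Cacna2d3 below (82.6 ± 16.5 and 13.0 ± 3.52 FPKM, SD, n = 4 each), while the other 5 overlapped.

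The second comparison asked whether fructose changed these genes in either region. No member passed the test. With limma on log2(FPKM + 1) over all loci of a table and Benjamini-Hochberg adjustment at 0.05, 0 of 36 members were called in hippocampus, where 0% of 11385 loci were called, and 0 of 41 in hypothalamus, where 1 locus of 11498 (0.0087%) was called, which is no member. At an unadjusted p under 0.05 the members' counts were also 0 and 0, against 92 and 361 of all loci. In no member did the fructose libraries all lie above or all below the controls, against 0.255% above and 0.413% below over all hippocampus loci and 1.75% and 1.58% over all hypothalamus loci. Fold changes were positive for 18 and negative for 18 members in hippocampus, with a median of 0.02 on the log2 scale (-0.004 over all loci). In hypothalamus 24 were positive and 17 negative, with a median of 0.03 (0.006 over all loci). Kcnh4 in hippocampus and Scn11a, Kcnq1 and Kcnh3 in hypothalamus reached 1 FPKM only through the group where they were higher. The filter thus fixed their signs, and that of Kcnh3 rested on hypothalamus control replicate 1 alone.

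The intervals state how large a difference these libraries leave room for. In hippocampus 35 of 36 members (97.2%, against 92.8% of all loci) had a log2 fold change smaller than 0.3 in size, and for 33 members (91.7%, against 89.0%) the 95% interval lay within 1 log2 unit of 0. In hypothalamus the counts were 35 of 41 (85.4%, against 87.0%) and 32 of 41 (78.0%, against 87.8%). The 4 widest intervals in hypothalamus belonged to Scn3a, Cacna1g, Cacna1i and Kcnh1, whose replicate 1 values were at 0 or low. For Scn3a in hypothalamus the interval ran from -4.85 to 3.56. By family the median fold change lay between -0.05 (HCN) and 0.26 (Kv2, a single gene) in hippocampus, and between -0.21 (Kv10 to Kv12) and 0.33 (Kv2) in hypothalamus. The adjusted p was 1 for each member in both regions.

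**Figure D3:**
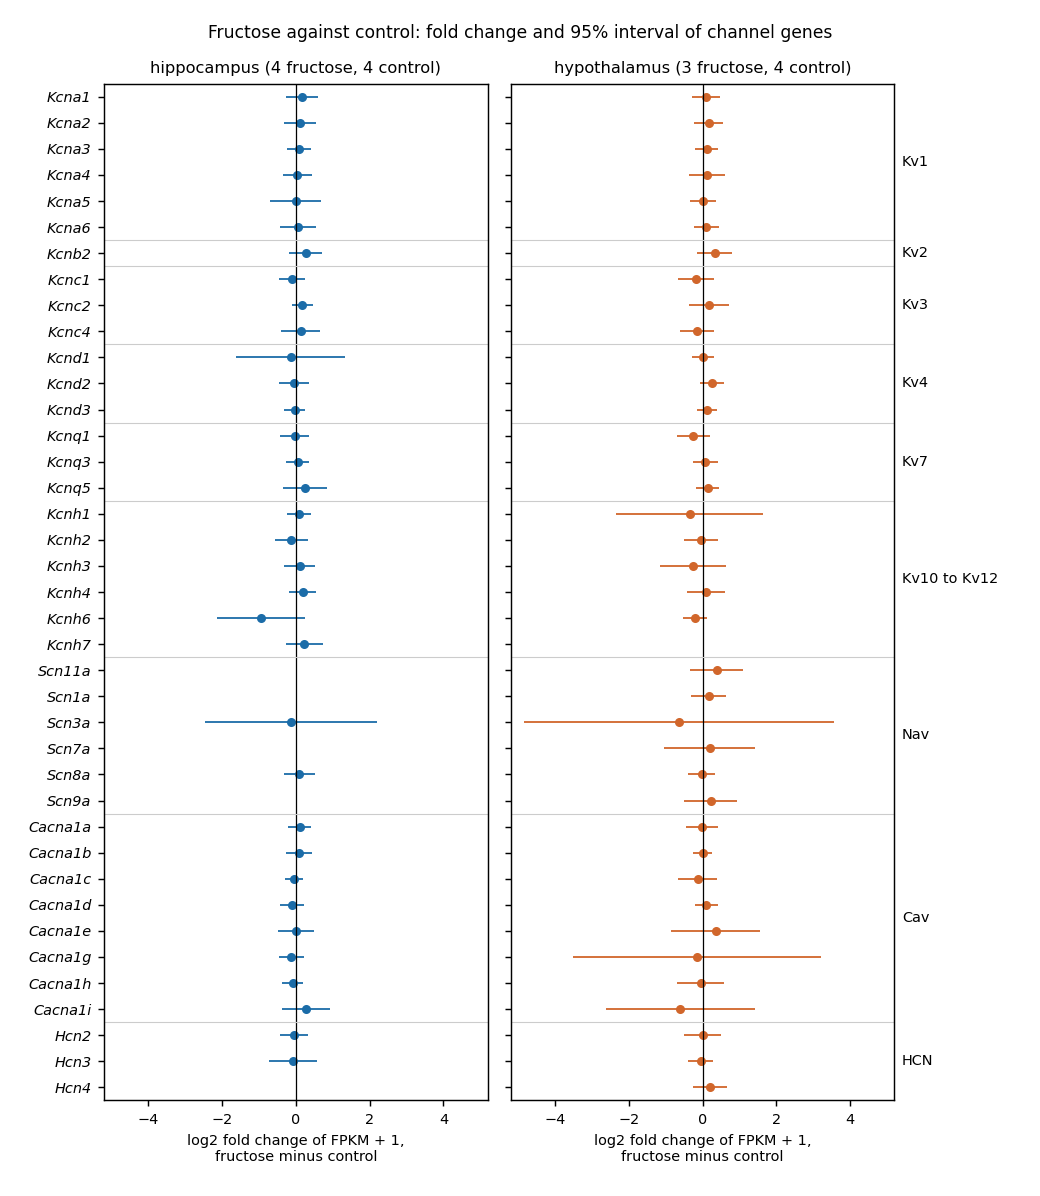
Log2 fold change of FPKM + 1, fructose minus control, of the channel genes reported here in hippocampus (left, 4 against 4 libraries) and hypothalamus (right, 4 control against 3 fructose), with horizontal lines for the 95% intervals of the limma fit. Every line crosses 0, and the widest, for Scn3a in hypothalamus, runs from -4.85 to 3.56.

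Kcnh6, an ERG-type channel, had the smallest p in hippocampus. Its controls were at 1.63, 2.10, 3.30 and 15.1 FPKM and its fructose libraries at 1.51, 1.57, 1.94 and 1.15 FPKM. A single control library, replicate 4, stood far above the other 7, and the groups overlapped. The log2 fold change was -0.95 (SE 0.52, 95% interval -2.13 to 0.24, limma unadjusted p = 0.103, adjusted p = 1), and -0.37 without control replicate 4. In hypothalamus Kcnh6 had 3.96, 4.65, 4.90 and 5.72 FPKM in controls and 3.90, 4.20 and 3.92 FPKM with fructose, a fold change of -0.21 (SE 0.14). Of all members its difference between regions had the smallest p: 0.74 on the log2 scale, hypothalamus minus hippocampus (SE 0.58, limma unadjusted p = 0.224, adjusted p = 1), and 0.17 without that control library.

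Other negative values in hippocampus were small. The T-type genes Cacna1g (13.4, 12.5, 15.4 and 10.9 FPKM in controls, 14.7, 10.9, 9.87 and 12.4 FPKM with fructose) and Cacna1h (29.5, 24.6, 26.4 and 23.4 FPKM, then 25.7, 24.1, 27.4 and 20.4 FPKM) had fold changes of -0.12 (SE 0.15) and -0.09 (SE 0.12). Cacna1d had 8.52, 8.50, 7.59 and 7.49 FPKM in controls and 5.54, 7.49, 8.86 and 8.01 FPKM with fructose, a fold change of -0.10 (SE 0.14) that rested on fructose replicate 1 and was 0.01 without it. In all 3 genes the groups overlapped. For Cacna1h the files mark the values of control replicates 1 and 3 with a failed status.

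On the positive side in hippocampus, Kcnc2 had 18.3, 22.7, 20.6 and 15.6 FPKM in controls and 22.3, 22.3, 20.9 and 21.1 FPKM with fructose, a fold change of 0.17 (SE 0.12, limma unadjusted p = 0.207). Kcnb2 had 3.40, 4.10, 3.43 and 2.28 FPKM in controls and 3.02, 3.89, 5.85 and 4.03 FPKM with fructose, 0.26 (SE 0.20). The fructose values lay within the control range for Kcnc2, and 1 of the 4 lay above it for Kcnb2. Kcnh4 (means 0.875 ± 0.202 and 1.15 ± 0.324 FPKM, SD, n = 4 each) and Kcnh7 (2.35 ± 0.950 and 2.84 ± 0.503 FPKM) had 0.19 (SE 0.16) and 0.23 (SE 0.22). Kcnh4 reached the limit of 1 FPKM only through its fructose libraries, so the sign of its value is no separate observation.

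In hypothalamus the smallest p belonged to the A-type gene Kcnd2. Its controls were at 34.1, 30.9, 28.0 and 29.0 FPKM and its fructose libraries at 36.8, 42.3 and 31.0 FPKM, and 2 of the 3 fructose libraries lay above all controls. The log2 fold change was 0.25 (SE 0.14, 95% interval -0.08 to 0.58, limma unadjusted p = 0.114, adjusted p = 1), and in hippocampus it was -0.05 (SE 0.18). The difference between the regions was 0.30 (SE 0.24, limma unadjusted p = 0.229, adjusted p = 1). For Cacna1d, which was 0.10 in hypothalamus, that difference was 0.21 (SE 0.19, limma unadjusted p = 0.293). No member passed the test of the difference between regions, where 0% of 9931 symbols were called, and 0 members had an unadjusted p under 0.05.

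Kcnb2 was positive in hypothalamus as well, with 1.08, 1.47, 1.21 and 0.988 FPKM in controls and 1.12, 2.69 and 1.64 FPKM with fructose (0.33, SE 0.21, limma unadjusted p = 0.147). Scn11a had 1.22, 0.890, 0.944 and 0.174 FPKM, then 0.786, 2.53 and 0.898 FPKM, so that 1 fructose library stood out, and it reached the limit of 1 FPKM through the fructose libraries. Kcnq5 had 4.81, 5.80, 4.51 and 4.33 FPKM, then 5.47, 5.79 and 5.07 FPKM, all within the control range. On the negative side Kcnq1 had 1.71, 0.893, 1.20 and 1.38 FPKM in controls and 1.43, 0.647 and 0.762 FPKM with fructose (-0.25, SE 0.19). Kcnq1 and Kcnh3, also negative here, reached the limit of 1 FPKM only through their control libraries. Their fructose means were 0.946 and 0.78 FPKM, so their signs are no separate observation. For Kcnh3 the limit was reached through control replicate 1 alone, at 3.49 FPKM. Without that library its control mean was 0.636 FPKM, below its fructose mean. Kcnc1 and Kcnc4, both Kv3 subunits, had means of 45.6 ± 11.1 and 58.2 ± 11.2 FPKM in controls (SD, n = 4) and 39.3 ± 3.36 and 52.3 ± 9.18 FPKM with fructose (SD, n = 3), and overlapped. The value for Kcnc4, -0.15 (SE 0.20), was 0.005 without fructose replicate 1.

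Among the partner genes none passed the test either. Of the auxiliary potassium, sodium and calcium channel subunits and the silent Kv subunits, 0 of 37 in hippocampus and 0 of 34 in hypothalamus had an unadjusted p under 0.05. Of 22 other potassium channel pore genes 1 had in each region. Over all loci 92 of 11385 in hippocampus and 361 of 11498 in hypothalamus had such a p. Kcnk2, a background leak channel, was positive in hippocampus (0.36, SE 0.15, limma unadjusted p = 0.037, adjusted p = 1). Kcnj10, the inward rectifier of astrocytes, had 74.7, 60.5, 47.4 and 44.1 FPKM in hypothalamus controls and 81.2, 96.9 and 85.4 FPKM with fructose, all above the controls (0.65, SE 0.20, limma unadjusted p = 0.0117, adjusted p = 1). These values come from the higher-mean of its 2 loci. Fructose libraries all lay above the controls at 1.75% of all hypothalamus loci. Summed levels of 8 meningeal fibroblast markers, of which 1 was listed at 0 throughout in each region, ran from 41.8 to 433.6 FPKM in hippocampus controls and 179.6 to 655.2 FPKM with fructose, and from 187.3 to 348.6 and 43.6 to 197.8 FPKM in hypothalamus. Of the 7 tested in hypothalamus all were negative (median log2 fold change -1.61) and 4 had an unadjusted p under 0.05, and in hippocampus all 7 were positive (median 1.47) and 1 did. Of 6 mural cell markers 5 were negative in hypothalamus (median -0.97) and 3 had such a p, with sums of 342.9 to 686.0 FPKM in controls and 225.3 to 417.9 FPKM with fructose. Of 5 ependymal markers 4 were positive there (median 0.66) and 3 had such a p, with sums of 43.4 to 63.0 and 68.0 to 80.1 FPKM. Of 6 astrocyte markers 5 were positive (median 0.20) and 0 had such a p, with sums of 1930 to 2455 and 1823 to 2981 FPKM. In hippocampus these lists went the other way, with 0 at such a p. There 4 of 5 mural markers were positive (median 0.54), and 4 of 5 ependymal (-0.18) and 5 of 6 astrocyte markers (-0.06) negative. Microglia, endothelium and choroid plexus markers had 1 such p each in hypothalamus, of 6, 4 and 4 tested. None of these markers passed the adjusted test in either region, and the part of these cell types in the channel values, Kcnj10 included, was not tested.

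Several members were spread over more than 1 locus, 8 in hippocampus and 10 in hypothalamus, and in many of these the replicate 1 libraries differed in which locus held the signal. In hypothalamus the higher-mean locus of Scn3a had 0 FPKM in both replicate 1 libraries and 28.1 to 50.02 FPKM in the others, while the second locus had 18.5 and 30.8 FPKM in replicate 1. Kcnh1 had 0 FPKM in both replicate 1 libraries at its first locus and 5.03 and 4.97 FPKM at the second. Cacna1e ran the other way, with 15.0 and 13.2 FPKM at the first locus in replicate 1 against 3.45 to 5.98 FPKM in the others, and 0 FPKM at the second. With its loci summed, Cacna1e had 15.0, 14.9, 14.7 and 11.5 FPKM in controls, so the libraries then lay close together. For Cacna1g the sums were still 12.5 FPKM in control replicate 1 and 39.6 to 52.4 FPKM in the other controls. Over all members, both replicate 1 libraries lay outside the range of the other hypothalamus libraries for 9 of the 10 members with several loci and for 14 of the 31 with 1 locus, 56.1% in all against 51.2% of all loci. In hippocampus the counts were 2 of 8 and 3 of 28, 13.9% against 28.4% of all loci. What sets the replicate 1 libraries apart was not tested.

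**Figure D4:**
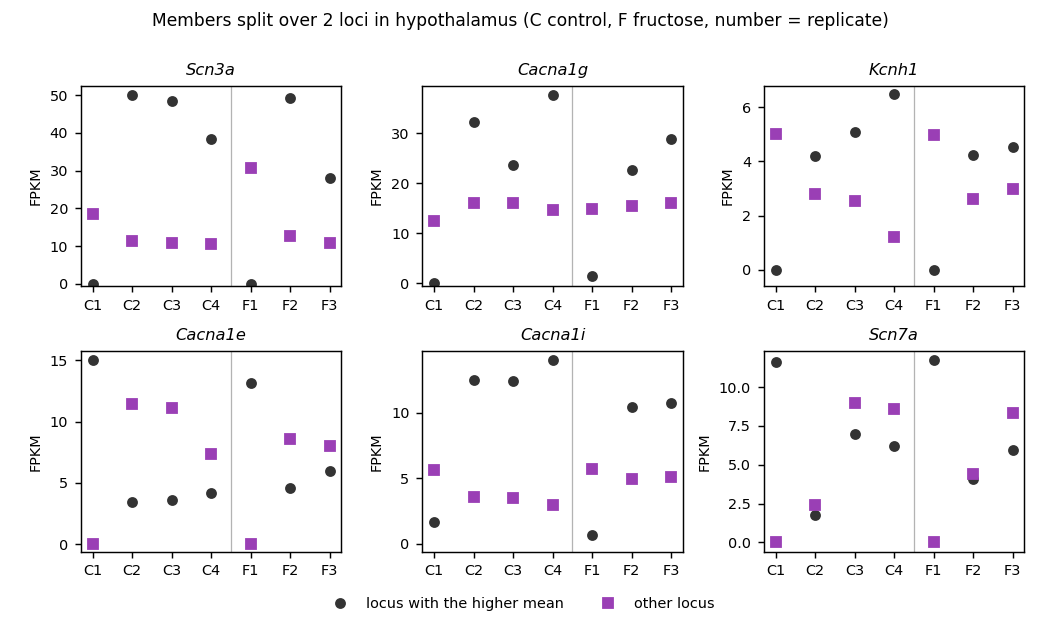
FPKM of the 2 loci of 6 members in each hypothalamus library (C control, F fructose, the number being the replicate). In the replicate 1 libraries the locus with the higher mean lies near 0 for Scn3a, Cacna1g and Kcnh1 and is low for Cacna1i, and the other locus lies at 0 for Cacna1e and Scn7a.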

How the data were processed

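Poly-A RNA from hippocampus and hypothalamus was sequenced on an Illumina instrument, per the labels' protocols. The submitters' processing notes name TopHat, Bowtie, TopHat2, Bowtie2, Cufflinks and Cuffdiff and the build rn5, with CASAVA 1.8.2 for demultiplexing, per the labels. The authors deposited 1 table per region with FPKM values and a status flag for each library and locus, without counts or coordinates. Normalization across the tables is not given in the sources used here.

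Each symbol was taken at its locus with the highest mean over all libraries of the table, loci with a mean of at least 1 FPKM were tested, and log2(FPKM + 1) was fitted with limma 3.58.1 in R 4.3.3 (moderated test with trend, group as the only term, Benjamini-Hochberg adjustment over all loci at 0.05). Since a pseudocount of 1 is added, fold changes of low genes are understated. The design assumed 4 libraries per group, and hypothalamus fructose had 3. The difference between regions was an interaction over the 9931 symbols at 1 FPKM or more in both tables. Regional levels were compared without a test. The fit was tested on simulated data with known changes and independent noise in each library. The simulation did not hold the replicate 1 pattern, so it does not give the size of change detectable here.

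Values in every library are given by a rule: the 4 members with the smallest p in each direction and region, the 3 with the smallest p for the difference, and in each family the highest member and the largest ratio in each region. The values of 3 of the 42 members are not reported here and are left out of the family shares and the figures. Values of further members were added after they were seen. The members and the gene lists were chosen with earlier results of these data known. Deviations of libraries of the same replicate number correlated at r = 0.892, 0.208, 0.481 and 0.41 in hippocampus and 0.848, 0.488 and 0.456 in hypothalamus. By the rule applied this counts as a pairing, read from the data. Without replicate 1 the values were -0.226, 0.404 and 0.088, and 0.269 and 0.036, so a pairing beyond replicate 1 is not shown. Alternatives were the pseudocount, the filter, leaving out libraries, a replicate block, array weights, rescaling and summed loci, and, added after seeing the data, the members with 1 locus in each table and those at 1 FPKM or more in both regions. Gene sequences are RefSeq promoters of GRCr8. Figures were drawn with matplotlib 3.10.9.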

Additional observations from a re-analysis of the deposited data

Results flagged for a closer look

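Within the groups of 4 libraries, 6 of the 84 groups looked at (28 genes) had a library far from the other 3 by Dixon's criterion, where chance gives about 1 group in 20. Of these, 4 were replicate 1 libraries. Kcnd1 was at 0.343 FPKM in hippocampus control replicate 1 and at 5.12 to 5.56 FPKM in the other controls. Kcnh3 was at 3.49 FPKM in hypothalamus control replicate 1, against 0.475 to 0.751 FPKM. Cacna1e was at 15.0 FPKM (14.99) in the same library, against 3.45 to 4.15 FPKM, and Cacna1i at 1.62 FPKM (1.622), against 12.4 to 14.0 FPKM. Kcnh6 was at 15.1 FPKM (15.07) in hippocampus control replicate 4, against 1.63 to 3.30 FPKM. Scn11a was listed at 0 in hippocampus fructose replicate 3, against 0.0807 to 0.0959 FPKM, all very low values. The values of Kcnd1, Cacna1e and Cacna1i are those of the higher-mean of 2 loci. With loci summed, Cacna1e had 15.0 FPKM in control replicate 1, against 11.5 to 14.9 FPKM in the other controls. Kcnd1 then had 3.64 against 6.84 to 7.32 FPKM, and Cacna1i 7.23 against 15.9 to 16.9 FPKM. The causes were not tested.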

How the results depend on the processing

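No channel gene passed the fructose test under any setting tried, in either region or for the difference between them. Without a read count, the depth and its limits are unknown. Loci passing in hippocampus numbered 0, and 0 to 1 when single libraries were left out. In hypothalamus 1 locus passed; the number was 0 with a minimum of 5 FPKM, 0 to 2 when single libraries were left out, 2 without both replicate 1 libraries and 2 with the replicate block, which changed no call for a member. For the difference between regions 0 passed, 0 to 1 when single libraries were left out and 336 with array weights, where no member passed. Members at an unadjusted p under 0.05 numbered 0 in both regions and at most 2 in most alternatives. With array weights they numbered 5 of 41 in hypothalamus, where 2099 of all 11498 loci had such a p. For the difference with array weights they numbered 3 of 35, where 1829 of all 9931 symbols had such a p. Members with all hypothalamus controls above hippocampus numbered 9, 9 to 14 when single libraries were left out (14 without hypothalamus control replicate 1) and 16 without both control replicate 1 libraries. With loci summed, the Kv3 and Cav shares in control hypothalamus were 19.3% (19.29) and 21.3%. Cacna1d in hippocampus reversed without fructose replicate 1 (-0.18 to 0.0143 when single libraries were left out) and without both replicate 1 libraries (0.0406), and Kcnc4 in hypothalamus without fructose replicate 1 (-0.28 to 0.0046). The cause was not tested. The remaining 307 fold changes kept their direction and call, but they cover only the members named for the smallest p, and none was ever called. Over all members the signs moved more. In hippocampus 18 of 36 were positive, 10 without control replicate 4, 12 with array weights and 24 without both replicate 1 libraries. In hypothalamus 24 of 41 were positive, 32 without fructose replicate 1 and 22 without fructose replicate 2. Of 25 members with 1 locus in each table, 8 (32%) were above, 10 (40%) below and 7 overlapped, against 35.6% above and 16.8% below of the 8986 such symbols. Of 35 members at 1 FPKM or more in both regions 6 were above and 14 below, both choices made after seeing the data.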

Other observations

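Other potassium channel pores differed between control regions in both directions. Of 22 compared, 7 (31.8%) were higher in each hypothalamus control library and 8 (36.4%) lower, where 34% and 17.6% of all symbols were. Kcnj16, an inward rectifier that pairs with Kcnj10, had 4.45 ± 0.841 FPKM in hippocampus and 63.9 ± 5.73 FPKM in hypothalamus, a ratio of 14.4. The leak channel Kcnk3 had control means of 2.04 and 12.2 FPKM. Lower in hypothalamus were the inward rectifier Kcnj4 (9.35 and 2.10 FPKM) and the sodium-activated channel Kcnt2 (9.26 and 1.28 FPKM). The hippocampus mean of Kcnj4, read at the higher-mean of 2 loci, was raised by control replicate 1. That library had 23.65 FPKM, against 5.40, 5.08 and 3.27 FPKM in the other controls. No test was made across the tables.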
